A study of Mus musculus with 3 samples.

Results

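Intronic ERα regions are stretches of the mouse genome inside the introns of protein-coding genes where estrogen receptor α was recovered by chromatin immunoprecipitation. A region was kept when peaks of both ChIP replicates overlapped by at least 1 bp, when the midpoint of the overlap lay in an intron and in no exon of a protein-coding gene, and when that midpoint was not between 1 kb upstream and 400 bp downstream of its nearest transcription start site (TSS). This left 2520 intronic regions out of 6243 shared regions on chromosomes 1 to 19 and X. ERα ChIP-seq was performed on mammary glands of WT BALB/cJ mice whose ovaries were removed at 6 weeks and which then had 10 days of rest before 100 ng of 17β-estradiol, with tissue taken after 2 h. There were 2 ChIP replicates, each pooled from several animals, and 1 input library that entered only as the control of the peak calls. No library of vehicle-treated mice was among the samples, so every value below describes occupancy after estradiol and not a response to it. Replicate 1 had 9607 peaks and replicate 2 had 6819 peaks. Read counts were not used here, and each peak carries a MACS score, so that a p-value of 1e-08 equals a score of 80.

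ERα is a ligand-activated nuclear receptor that binds DNA as a dimer, most directly at the estrogen response element (ERE), a palindrome of paired half-sites separated by a short spacer. In the mammary gland it is present in a subset of luminal epithelial cells and in stroma, and it drives ductal growth at puberty. Much of its binding lies far from promoters, and introns of long genes can carry enhancers for the gene that contains them or for its neighbours.

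The ERE was searched as GGTCANNNTGACC, which reads the same on both strands. The sites below come from 8 of the 10 intronic regions with the highest scores, without those of Synpo and Gm20388. They show the best match to the consensus in each region, which need not be where the receptor bound. Each line gives the site of the region with the fewest mismatches to that pattern, with 15 bases on either side, from the forward strand of mm9, and the capitals mark the 13 bases aligned with the ERE.
Aff3 intron 12, chr1:38298764-38298806: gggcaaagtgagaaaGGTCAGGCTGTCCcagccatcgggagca
Ptpn5 intron 2, chr7:54364361-54364403: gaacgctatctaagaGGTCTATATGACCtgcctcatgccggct
Gm12824 intron 2, chr4:114145040-114145082: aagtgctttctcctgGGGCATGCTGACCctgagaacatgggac
AI118078 intron 1, chr9:55208826-55208868: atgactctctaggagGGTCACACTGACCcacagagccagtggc
1700024P16Rik intron 3, chr4:104621787-104621829: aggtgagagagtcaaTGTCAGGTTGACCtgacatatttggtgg
A730020M07Rik intron 2, chr3:121341168-121341210: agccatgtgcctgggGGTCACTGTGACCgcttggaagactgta
Zmiz1 intron 1, chr14:26292709-26292751: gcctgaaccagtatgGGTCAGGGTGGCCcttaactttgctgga
Spon1 intron 6, chr7:121105830-121105872: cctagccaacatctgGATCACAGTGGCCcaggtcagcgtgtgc
The A730020M07Rik and AI118078 sites matched the ERE with 0 mismatches. The Spon1 site had 2 mismatches, and the other 5 sites had 1. Greb1, an estrogen-induced cofactor of ERα, is shown because 3 of its 4 intronic regions held a site with at most 1 mismatch, all in the same intron, and their distances are from the transcript start.
Greb1 at 10.3 kb, chr12:16797401-16797443: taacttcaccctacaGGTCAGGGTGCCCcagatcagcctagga
Greb1 at 35.9 kb, chr12:16771698-16771740: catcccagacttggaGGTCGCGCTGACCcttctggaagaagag
Greb1 at 40.4 kb, chr12:16767322-16767364: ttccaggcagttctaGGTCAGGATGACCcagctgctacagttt
The last of these Greb1 sites was a perfect ERE. The last set comes from genes with many regions and was picked for sites with at most 1 mismatch, which only 2 of 14 regions had in Adamts2, 2 of 13 in Zmiz1, 4 of 13 in Prkce, 2 of 9 in Cradd and 2 of 10 in Pcsk5.
Adamts2 intron 3, chr11:50522037-50522079: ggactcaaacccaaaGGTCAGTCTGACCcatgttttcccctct
Zmiz1 intron 2, chr14:26329099-26329141: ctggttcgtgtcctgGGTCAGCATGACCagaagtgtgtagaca
Prkce intron 1, chr17:86686432-86686474: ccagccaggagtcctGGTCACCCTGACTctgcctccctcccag
Cradd intron 2, near the start, chr10:94784896-94784938: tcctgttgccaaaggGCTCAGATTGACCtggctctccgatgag
Cradd intron 2, distal part, chr10:94656860-94656902: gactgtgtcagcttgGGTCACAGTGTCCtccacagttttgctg
Pcsk5 intron 2, chr19:17863281-17863323: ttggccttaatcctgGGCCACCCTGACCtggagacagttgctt
The Adamts2 site and the Zmiz1 intron 2 site had 0 mismatches, and the other 4 had 1.

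Introns held a larger share of the regions than of the genome's bases. Intronic regions made up 40.4% of all shared regions (95% Clopper-Pearson interval 39.1 to 41.6), whereas intronic bases that met the same position rule made up 34.6% of the assembled bases. Their density was 2.85 regions per Mb, against 2.06 per Mb for intergenic regions, which lay outside all protein-coding genes and away from TSSs and numbered 3155. Proximal regions were fewer, at 406, but denser, at 5.36 per Mb, and the 162 exonic regions had 2.60 per Mb. All intervals given here cover counting error only, since 2 pooled replicates give no estimate of the spread between animals. Every assembled base was counted, whether or not reads can be placed there uniquely, and the effect of this on the densities was not tested.

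**Figure D1:**
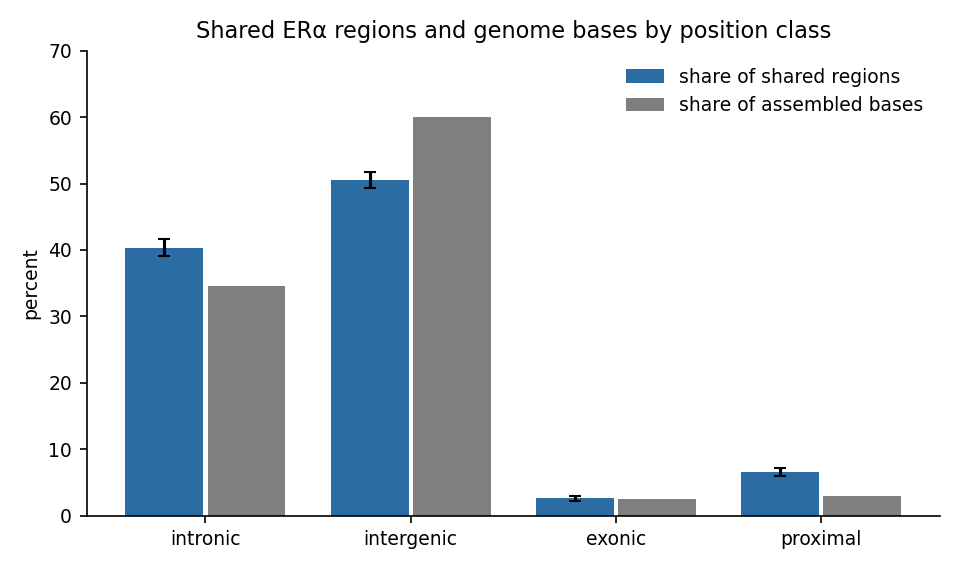
Bars show the percent of the 6243 shared regions (blue, with 95% Clopper-Pearson intervals) and of the assembled bases (grey) in each position class. The intronic share of regions, 40.4%, lies above the intronic share of bases, 34.6%, and the intergenic share of regions, 50.5%, lies below that of bases, 60%.

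The 2520 regions fell in 1593 host genes, which is 8.17% of the 19508 protein-coding genes with an intron. A single region was found in 1103 hosts. At least 2 regions were found in 490 hosts, or 2.51% of genes with an intron, and these hosts held 1449 regions, 57.5% of the total. At least 5 regions lay in 56 hosts, with 427 regions between them, and 8 hosts had 10 or more. Nested or overlapping genes were rare: 70 regions lay in introns of 2 genes and 1 region in introns of 3.

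Host genes were long. The median host had 78.0 kb of eligible intron, meaning bases that could have met the rule, against 12.9 kb for genes with no region, and hosts with at least 2 regions had a median of 114 kb. The share of genes that hosted a region was 1.19% below 10 kb of eligible intron, 17.7% from 50 to 100 kb and 36.5% from 200 to 400 kb. Density did not follow length in the same way. It was 3.79 regions per Mb in genes with 50 to 100 kb and 1.36 per Mb in genes with over 400 kb, so the longest genes had fewer regions for their size than genes of middle length. Across the 1593 hosts the number of regions and the eligible length had a Spearman correlation of 0.266, given as a description because hosts differ in base composition and share loci.

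**Figure D2:**
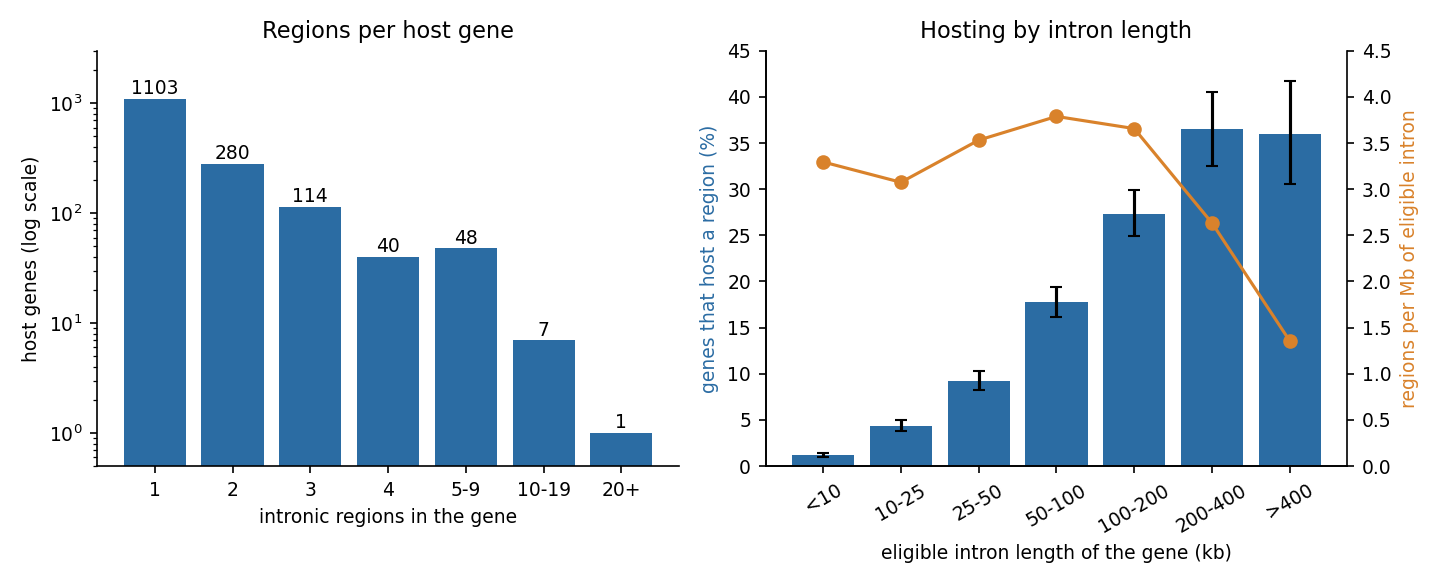
The left panel counts host genes by the number of intronic regions they hold, on a log scale. The right panel shows, by eligible intron length, the percent of genes that host a region (bars, 95% Clopper-Pearson intervals) and the regions per Mb (line), which fall from 3.66 at 100 to 200 kb to 1.36 above 400 kb.

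The hosts with the most regions included enzymes of the extracellular matrix, signalling proteins and a nuclear receptor coactivator. Adamts2, a protease that trims procollagen, held 14 regions in its introns 2, 3 and 4, equal to 7.42 regions per 100 kb of eligible intron. The strongest of these, at chr11:50486064-50486830 in intron 3, scored 2677 in replicate 1 and 1460 in replicate 2, and an ERE with at most 1 mismatch lay in only 2 of the 14 windows. Zmiz1, a PIAS-like coactivator of steroid receptors, held 13 regions, of which 5 were in intron 1, 7 in intron 2 and 1 in intron 5. Its region at chr14:26292001-26293209, 13.9 kb from the transcript start, scored 2991 in replicate 1 and 2303 in replicate 2. Gm12824, named Trabd2b in RefSeq and known as an inhibitor of Wnt proteins, held 13 regions, all in its intron 2 of 171 kb.

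Prkce, which encodes protein kinase C epsilon, had 13 regions, 9 of them in intron 1. Spon1, a secreted matrix protein, had 10 regions, with 5 of them in intron 6, and Pcsk5, a protease that activates hormone precursors, had 10 over 4 introns. All 9 regions of Cradd, an adaptor protein of cell death signalling, were in intron 2, the last of its 2 introns. Ell, a transcription elongation factor outside the list of named genes and picked after its value was seen, packed 8 regions into 49.9 kb of eligible intron, or 16 per 100 kb.

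A few of these counts rest on the gene model. Gm20388 had 54 regions, but its model spans 4.43 Mb of chromosome 8, all 54 lay in its intron 1, 20 of them were also in an intron of another gene, and for none was its own TSS the nearest. Fgfr2, a fibroblast growth factor receptor, had 14 regions over a model of 3.01 Mb, and none of these lay within the 102 kb of its transcript with the longest coding sequence. The 9 regions of Sox5, a transcription factor of cartilage and neurons, also lay in no intron of such a transcript of their gene. Without the gene models over 2.5 Mb, which are Gm20388 and Fgfr2 alone, 2481 regions and 1591 hosts remained, an alternative chosen after the data were seen. A further 53 regions shared a peak with another region, for example where 1 broad peak of one replicate met 2 narrower peaks of the other, as in Spon1 intron 6, so neighbouring regions are not always separate peaks in both replicates.

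**Figure D3:**
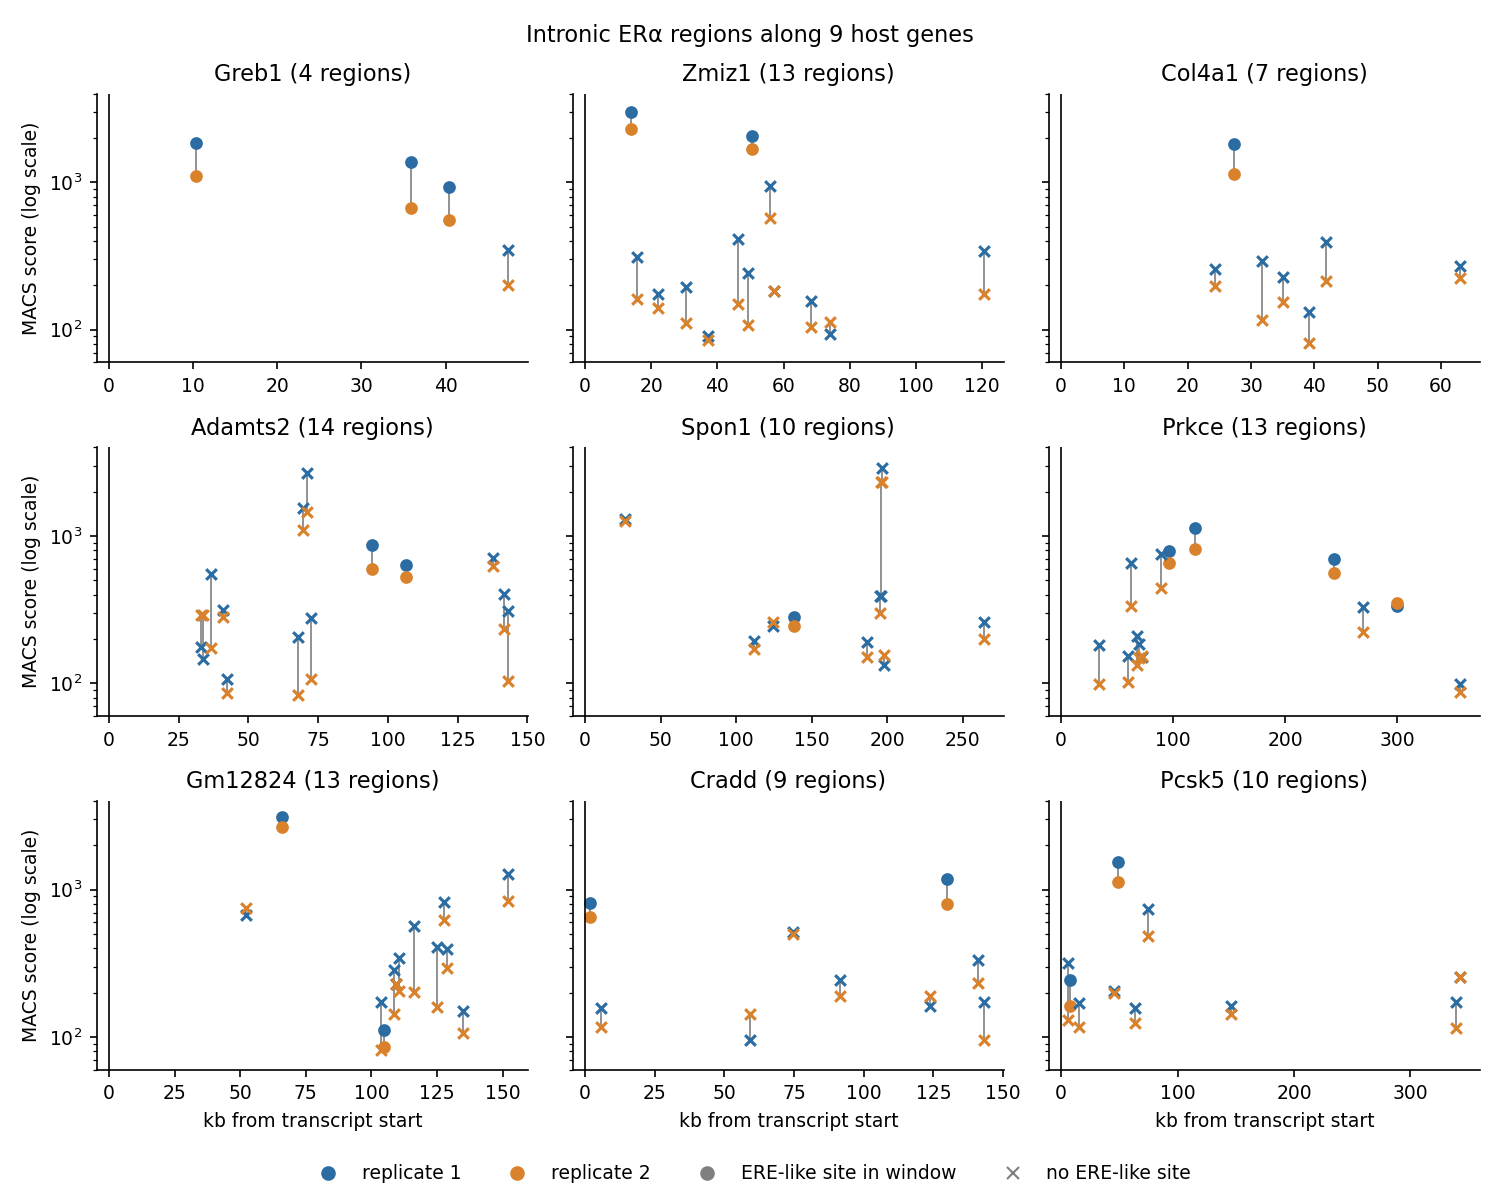
Each panel is a host gene, with the distance of each region from the transcript start in kb and the MACS score of both replicates on a log scale. Circles mark regions whose 400 bp window holds an ERE with at most 1 mismatch and crosses mark the others, and in Greb1 the 3 regions with an ERE are those with the highest scores.

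Many neighbouring regions of a gene lay in the same intron. Among the 490 hosts with at least 2 regions there were 999 pairs of neighbouring regions, 488 of them (48.8%) in the same intron. The median distance between neighbours was 15.1 kb, with quartiles at 4.52 and 43.5 kb. These values include Gm20388, whose 54 regions are all in 1 intron of a doubtful model. They also include regions that share a peak, which can give short distances. No expected distance was computed for comparison. In Greb1 the 4 regions lay 10.3, 35.9, 40.4 and 47.4 kb from the transcript start, all within intron 1 of 60.4 kb. This placement rests on the transcript used, as another Greb1 TSS lies in that intron, and the regions at 10.3, 35.9 and 40.4 kb are upstream of it. Their scores fell in that order in both replicates: 1842, 1367, 927 and 348 in replicate 1, and 1106, 674, 554 and 201 in replicate 2. The region with the lowest scores was the only one of the 4 with no ERE in its window.

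Early introns held regions at a higher density than later ones. Introns were numbered on the protein-coding transcript with the longest coding sequence, which placed 2389 of the 2592 pairs of a region and a host. Intron 1 held 843 of these, 35.3% (33.4 to 37.2), while it made up 25.8% of the eligible intronic bases of all such transcripts. The density was 3.93 regions per Mb in intron 1, 3.31 in intron 2, 2.85 in intron 3, 2.38 in intron 4 and 2.00 from intron 11 onwards. Without Gm20388 and Fgfr2 the share in intron 1 was 33.8% (31.9 to 35.7) beside 25.4% of bases.

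Within 50 kb of the transcript start, intron 1 was denser than later introns at the same distance. From 10 to 20 kb, intron 1 had 4.81 regions per Mb (4.10 to 5.60) and later introns had 2.36 (1.99 to 2.78). From 20 to 50 kb the values were 4.73 (4.12 to 5.40) and 3.20 (2.89 to 3.53). Between 50 and 100 kb the intervals overlapped, with 2.48 (1.93 to 3.14) in intron 1 and 3.10 (2.78 to 3.44) in later introns. Beyond 100 kb the values were 2.51 and 1.90 per Mb, but this order came from Gm20388, since without it and Fgfr2 intron 1 had 1.06 (0.718 to 1.5) and later introns 1.90 (1.74 to 2.07). These intervals are Poisson intervals on the number of regions, and no test was made between the 2 groups of introns.

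**Figure D4:**
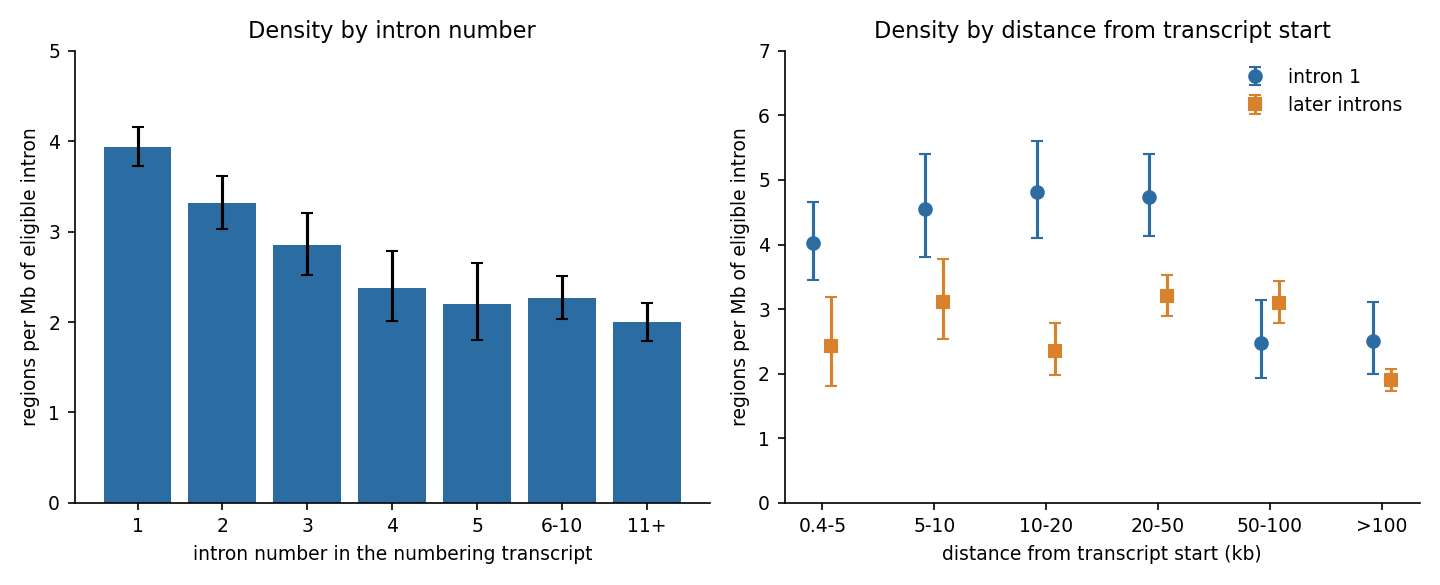
The left panel gives intronic regions per Mb of eligible intron by intron number, with the 95% interval of each intron's share of pairs on the same scale, and falls from 3.93 in intron 1 to 2.00 from intron 11 onwards. The right panel splits intron 1 (circles) from later introns (squares) by distance from the transcript start, with 95% Poisson intervals that do not overlap at 0.4 to 5, 5 to 10, 10 to 20 and 20 to 50 kb.

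The host gene was not always the gene with the nearest TSS. It was for 1768 regions, 70.2% (68.3 to 71.9), and for 421 of these the nearest TSS of the host lay further along the gene, downstream of the region. For the other 752 regions the nearest TSS belonged to another gene, protein-coding in 285 cases and noncoding or a pseudogene in 467. The 13 Zmiz1 regions and the 14 Adamts2 regions belonged wholly to the latter group, since noncoding transcripts start within or beside both genes. The median distance to the nearest TSS was 12.9 kb for intronic regions and 28.5 kb for intergenic regions, and 124 intronic regions (4.92%) lay beyond 100 kb.

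Among the 10 intronic regions with the highest lower score of the 2 replicates, Aff3 and Synpo both had 3100 in each replicate. In replicate 1, 17 peaks are listed at exactly this score, and in replicate 2 there are 8, so 3100 does not rank the regions that have it. It is not the highest score, since replicate 1 also has peaks above it. Aff3 encodes a nuclear protein of the AF4 family, and its region at chr1:38298003-38299308 lay in intron 12 of 23. Synpo encodes an actin-binding protein, and its region lay in intron 1. Next came Ptpn5, a tyrosine phosphatase, with 3100 and 2779 in replicates 1 and 2, and Gm12824 with 3100 and 2666. AI118078, which is Tmem266 in RefSeq, followed with 2684 and 2650 at chr9:55208541-55209270, and 1700024P16Rik, which is Fyb2, with 2509 and 2463. The other 4 were in Gm20388, A730020M07Rik, Spon1 and Zmiz1. A site with at most 1 mismatch to the ERE lay in 9 of the 10 windows, the exception being that of Spon1.

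Of 30 listed nuclear receptor coregulators, 12 were hosts (40%, 22.7 to 59.4), with 42 regions and 13.3 regions per Mb, beside 8.17% of all genes with an intron and 2.85 regions per Mb of intron. The median coregulator had 84.6 kb of eligible intron, a length class with 17.7% of all genes as hosts and 3.79 regions per Mb. The difference was not tested. Zmiz1 alone held 13 of the 42 regions. This list and those below were chosen with earlier results of these data known, so their shares are descriptions and not independent support. Besides Zmiz1 and Greb1 the coregulator hosts included Hdac4, a histone deacetylase, with 3 regions. Hdac4 had a perfect ERE at chr1:93974381-93975037 in intron 1, which scored 948 and 696 in replicates 1 and 2.

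Steroid and other nuclear receptors were hosts in 10 of 36 cases (27.8%, 14.2 to 45.2), with 25 regions. Their median was 55.6 kb of eligible intron, where 17.7% of all genes were hosts, a value inside that interval. Esr1, the gene of ERα itself, held 4 regions, 2 in intron 1 and 2 in intron 5, and none had an ERE in its window. Their scores ran from 97.9 to 252 in replicate 1 and from 111 to 186 in replicate 2. The medians of all intronic regions were 253 and 180. Rxra, the common partner of nuclear receptor dimers, held 3 regions with no ERE, yet one of them scored 1319 in replicate 1 and 804 in replicate 2. Rara, a retinoic acid receptor, held 3 regions, and Pgr, the progesterone receptor and a classical estrogen target, held 2, in introns 3 and 4, both with an ERE of 1 mismatch. The stronger Pgr region, at chr9:8937449-8938174, scored 513 in replicate 1 and 623 in replicate 2.

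Of 31 luminal and mammary transcription factors with an intron in the annotation, 6 were hosts (19.4%, 7.45 to 37.5), with 12 regions. Their median of 18.5 kb of eligible intron is in the class of 10 to 25 kb, in which 4.35% of all genes were hosts. Stat5a, which with Stat5b carries the prolactin signal to milk protein genes, had a single region with a perfect ERE in intron 5, at chr11:100731484-100732491, and scores of 2297 and 2292 in the 2 replicates. Stat5b had 2 regions, the stronger also in intron 5, with scores of 1613 and 1615. Zfhx3, a zinc finger and homeobox factor, had 2 regions.

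Receptors of growth factors and cytokines were hosts in 13 of 41 cases (31.7%, 18.1 to 48.1). In the length class of their median, 82.8 kb, 17.7% of all genes were hosts. They held 37 regions, of which 14 are those of the long Fgfr2 model. Egfr, the receptor of amphiregulin, had 4 regions, all in intron 1, and 3 had an ERE. Il31ra, a cytokine receptor chain, had 4 regions, led by 1 with scores of 1480 and 1195 in intron 14, and Ntrk2, a neurotrophin receptor, had 4. Growth factors and secreted ligands were hosts in 11 of 40 cases (27.5%, 14.6 to 43.9). In the length class of their median, 46.7 kb, 9.24% of all genes were hosts. The ligand genes held 15 regions. Fgf2 had 4 of these and Tgfa, a ligand of Egfr, had 2. Vegfa, the main angiogenic factor, had a single strong region in intron 2, with scores of 1722 and 1376. Wnt7b had 1 region, with scores of 701 and 472.

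Regulators of small GTPases were hosts in 22 of 48 cases (45.8%, 31.4 to 60.8). Genes of cell adhesion and matrix were hosts in 21 of 50 (42%, 28.2 to 56.8). Both lists are made of long genes, with medians of 166 and 105 kb of eligible intron, a length class in which 27.4% of all genes were hosts. Their densities, 3.67 and 4.06 regions per Mb, stand beside 3.66 in that length class and 2.85 over all introns. Arhgap26, a GTPase-activating protein, had 7 regions, while Arhgap24 and Kalrn had 3 each and Sipa1l1 had 2. Adam12, a metalloprotease, had 8. Col4a1, a chain of basement membrane collagen, had 7, of which 6 lay in intron 1, and the strongest, with a perfect ERE, scored 1814 and 1145. The integrin genes Itgb6 and Itga2 had 4 each. As with Sox5, some of these counts rest on the gene model. The transcripts used for intron numbers held none of 4 Itgb6 regions, 3 of 7 in Arhgap26 and 1 of 3 in Kalrn. Circadian and cell cycle regulators were hosts in 4 of 28 cases (14.3%, 4.03 to 32.7). In the length class of their median, 15.6 kb, 4.35% of all genes were hosts, a value inside that interval. The 4 were Arntl, the core clock activator, with 2 regions in intron 2, and Per2, Cdk14 and Cdkn1a with 1 each.

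Genes that mark cell types gave small counts of hosts, to be read beside the 8.17% of all genes with an intron. Among luminal epithelial markers 1 of 12 was a host, Krt19, and among basal and myoepithelial markers 2 of 11, Trp63 and Myh11. Adipocyte markers gave 2 of 15, Pparg and Pnpla2, fibroblast markers 3 of 11, Fap, Fbln1 and Col3a1, and endothelial markers 1 of 10, Eng. No immune marker of 12 and no skeletal muscle marker of 12 was a host, which allows a share of up to 26.5% in each by the exact interval. The lists differ in intron length, with a median of 3.98 kb of eligible intron for the luminal and 86.9 kb for the endothelial markers, so these counts say little about which cells of the gland held the bound receptor.

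Windows of 400 bp centred on the midpoints were searched for 5 motifs on both strands. The ERE with at most 1 mismatch was found in 826 intronic windows, 32.8% (30.9 to 34.6), and in 1.01% of windows 5 kb away that were also intronic and touched no peak. The AP1 motif TGACTCA, bound by Fos and Jun, was found in 15.7% of intronic windows and 7.76% of their flanks. The SF1 motif CAAGGTCA, an extended half-site that contains the ERE half-site GGTCA and so can overlap an ERE, was in 8.93% and 3.04%. The PAX2 motif GTCACG was in 8.73% and 4.41%, and the FOXA1 motif, TATTTAC or TGTTTAC, in 13.7% and 11.4%. None of the 5 motifs was in 1034 intronic windows (41.0%), and at least 2 were in 443 (17.6%). The PAX2 pattern, and the AP1 pattern beside an ERE with 1 mismatch, can also overlap an ERE. Windows with at least 2 motifs therefore need not hold separate sites. Among windows with an ERE the nearest site lay within 50 bp of the midpoint in 72.6%, with a median distance of 28.5 bp.

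Intronic windows held an ERE slightly more often than intergenic windows and the AP1 motif slightly less often. For the ERE the shares were 32.8% and 29.6%, with an odds ratio of 1.16 in a two-sided Fisher's exact test (adjusted p = 0.0253 over the 5 motifs by Benjamini-Hochberg). For AP1 they were 15.7% and 18.5%, with an odds ratio of 0.817 (exact test, adjusted p = 0.0234). SF1 (8.93% and 9.83%, exact test, adjusted p = 0.317), PAX2 (8.73% and 8.46%, exact test, adjusted p = 0.739) and FOXA1 (13.7% and 15.1%, exact test, adjusted p = 0.215) did not pass the threshold of 0.05, which does not show that the shares were the same. Each region counted as an independent unit in these tests, although regions of one gene share a locus. The ERE difference was small and hung on the definition: for a perfect ERE the intronic share was the lower one, 5.79% against 6.97%, with an odds ratio of 0.820 (exact test, adjusted p = 0.182). With at most 2 mismatches the shares were 70.2% and 65.3%, with an odds ratio of 1.25 (exact test, adjusted p = 0.000415). It also no longer passed with scores of at least 100 or 200 in both lists, where the odds ratio was 1.11 and 1.04, with peak midpoints within 100 bp, or against intergenic regions within 100 kb of a TSS, where it was 1.14. With the peaks of replicate 1 alone neither difference passed, at odds ratios of 1.13 for the ERE and 0.873 for AP1 (exact tests, adjusted p = 0.0540 for both).

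**Figure D5:**
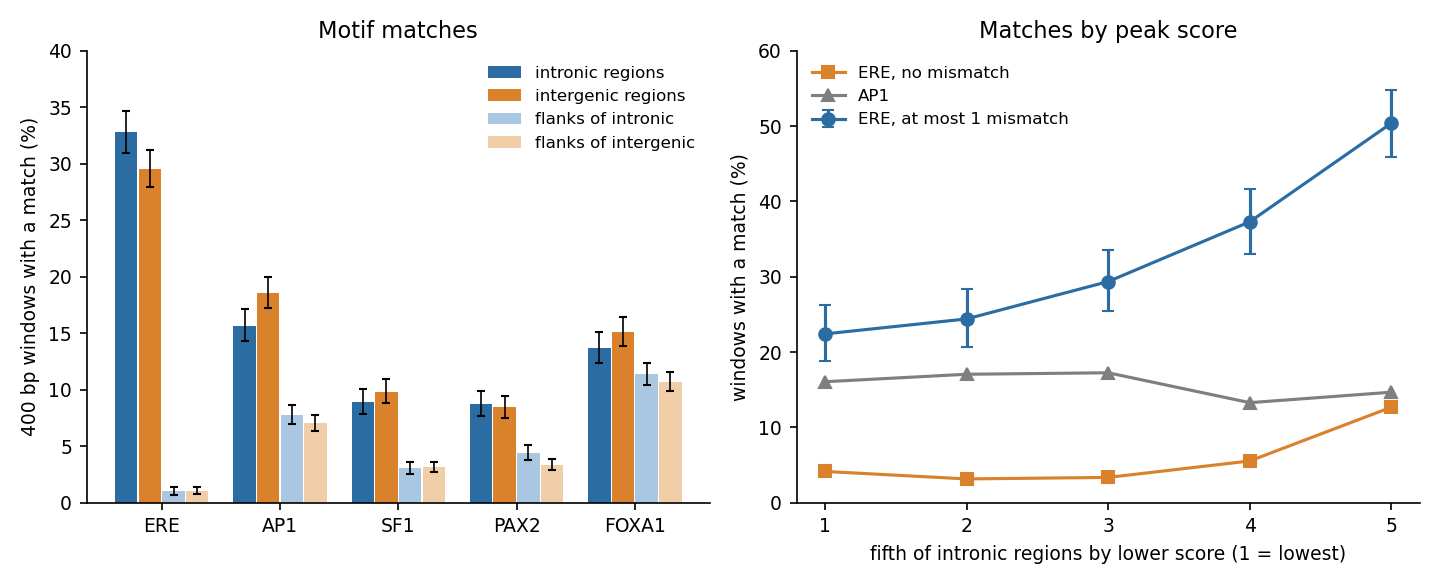
The left panel gives the percent of 400 bp windows with each motif in intronic regions, intergenic regions and the flanks of both, with 95% Clopper-Pearson intervals. The right panel gives the percent of intronic windows with an ERE or an AP1 match in quintiles of the lower score, where the ERE share goes from 22.4% to 50.4% and the AP1 share stays between 13.3% and 17.3%.

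The bases that departed from the ERE were not spread evenly over the half-site. In the 680 intronic windows whose best site had 1 mismatch, the mismatch was at the outermost base of a half-site in 34.4% (30.8 to 38.1) and at its middle base in 35.3% (31.7 to 39.0). The remaining bases, counted from the outer end as 2, 4 and 5, took 10.0%, 9.12% and 11.2%. Intergenic windows had nearly the same profile, with 33.7% at the outermost and 32.8% at the middle base.

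The ERE share was higher in stronger peaks. In quintiles of 504 intronic regions by lower score, it was 22.4%, 24.4%, 29.4%, 37.3% and 50.4% from the weakest to the strongest, and a perfect ERE was in 4.17% of the weakest and 12.7% of the strongest quintile. Whether the ERE share depends on score was not tested. The AP1 share moved little, from 16.1% in the weakest to 14.7% in the strongest. By position the ERE share was 35.4% (32.1 to 38.7) in intron 1, 33.1% in intron 2 and 31.9% (29.1 to 34.7) in later introns, with overlapping intervals.

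Regions that were alone in their gene held an ERE more often than regions of genes with many. The share was 37.2% (34.3 to 40.1) for the 1071 regions whose host had no other region, 31.0% (28.2 to 34.0) where the host had 2 to 4, and 26% (21.9 to 30.4) where it had 5 or more. The median lower score went the other way, at 160, 178 and 183. This split was made after the data were seen and is a description with no test.

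Peak strength itself differed little between introns and intergenic sequence. The median score of intronic regions was 253 in replicate 1 and 180 in replicate 2, and that of intergenic regions 240 and 180. A lower score of at least 200, a p-value of 1e-20, was reached by 42.8% of intronic and 41.5% of intergenic regions, with an odds ratio of 1.06 (p = 0.330 in Fisher's exact test, both sides). The odds ratio was 1.1 on the scores of replicate 1 (exact test, p = 0.0954) and 1.06 on those of replicate 2 (exact test, p = 0.271). Replicate 1 had the higher score in 81.3% of intronic regions, so scores were compared only within a replicate or as the lower of both.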

How the data were processed

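ERα ChIP-seq peaks of the 2 replicates were analysed as deposited. By the paper's methods, the authors used BWA for alignment of single-end reads (mm9) and MACS for peaks with a p-value cutoff of 1e-08. Per the file headers, each replicate was set against the input. Program versions are not given in the sources used here. The deposited score is -10 log10 of the MACS p-value and was not scaled between replicates. Only peaks found in both lists were used, leaving out 9 and 7 peaks on unplaced sequences.

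Genes, introns and TSSs came from GENCODE M1 (Ensembl 65, NCBIM37, the same assembly as mm9), and current symbols from RefSeq, where 1574 of 1593 hosts matched. Shares were given Clopper-Pearson intervals, and intronic and intergenic regions were compared with Fisher's exact test, adjusted by Benjamini-Hochberg over the 5 motifs. Named genes were the 10 hosts with the most regions, the hosts of the 10 regions with the highest lower score, up to 4 hosts per list, and Greb1 and Pgr; some of these are not reported here. The members and the gene lists were chosen with earlier results of these data known. Alternatives changed the score cutoff, the overlap, the replicates, the position rule, the numbering transcript, the ERE mismatches and the window. Scripts were tested on simulated data and run in Python 3.11.15 with pysam 0.24.0, matplotlib 3.10.9, numpy 2.4.6, scipy 1.17.1 and pandas 2.3.3.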

Additional observations from a re-analysis of the deposited data

How the results depend on the processing

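Of 75 recomputed values, 61 were unchanged: shares within the main 95% interval, host counts within 1.5 times, tests with the same direction and side of the threshold. The intronic share was 37.5% when the whole interval had to lie in introns, 42.8% with no proximal rule and 37.6% with introns of the numbering transcript only, the last chosen after the data were seen. There were 812 host genes with scores of at least 200 in both lists, outside the limit and all among the 1593. The other host counts ran from 1226, counting only the gene with the nearest TSS, to 2193, with replicate 1 alone. The share of intron 1 stayed between 33.5% and 36.5% in every alternative run.

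The ERE odds ratio of 1.16 was 1.11 at scores of at least 100 (adjusted p = 0.155), 1.04 at 200 (adjusted p = 0.618), 1.14 with peak midpoints within 100 bp (adjusted p = 0.0812) and 1.14 against intergenic regions within 100 kb of a TSS (adjusted p = 0.0689, chosen after the data were seen), by exact tests that no longer passed the threshold. It turned to 0.820 with 0 mismatches. The cause was not tested. Using only 1 replicate gave 1.13 to 1.20 for the ERE, 0.822 to 0.873 for AP1, 0.909 to 1.01 for SF1 and 0.992 to 1.02 for PAX2, and with replicate 1 alone neither the ERE nor AP1 passed (adjusted p = 0.0540 for both, exact tests). The odds ratio for high scores was 0.990 at a score of at least 500. Peak lists without reads limit what can be said of weak sites, and no spread between animals can be had.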

Other observations

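The X chromosome held few intronic regions, 19 in 17 host genes, or 0.469 per Mb of eligible intron against 2.97 per Mb on the autosomes. The scarcity was not limited to introns: all shared regions numbered 56 on the X chromosome, or 0.346 per assembled Mb, against 2.58 per Mb on the autosomes, and the X chromosome carried 102 of the 9607 peaks of replicate 1 and 60 of the 6819 of replicate 2. Among the autosomes the density in introns was highest on chromosome 8, at 4.18 per Mb, followed by chromosome 11, at 3.91, and chromosome 19, at 3.69, and was lowest on chromosome 1, at 2.21. Without the regions and intron bases that belonged to Gm20388 alone, chromosome 8 had 3.61 per Mb, below chromosomes 11 and 19.

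A stretch of 30 identical bases on either strand was shared with another window of the same class, from a different place, in 146 intronic windows (5.79%) and in 290 intergenic windows (9.19%). Among windows with an ERE the shares were 4.60% and 11.1%. The reference used here carries no marks of repeats, so the sequences behind these stretches were not classified. Intergenic windows were also more numerous, so each was compared with more windows.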
